A study of Mus musculus with 46 samples.

Results

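Caveolae are flask-shaped pits of the plasma membrane, and the genes of their coat were followed here in cell lines grown from mouse thyroid tumours. The 6 genes are the cavins Cavin1, Cavin2 and Cavin3, the caveolins Cav1 and Cav2, and Ehd2. They were taken by symbol from 14888 genes listed in either of 2 tables. All 6 were listed for the addback experiment (14056 genes), and 5 for the lines (14360 genes), where Cav1 was not analysed here. The genes were chosen by measured CPM values: a higher Cavin3 level in RPM lines and a lower Cavin2 level after Max addback were already in view. The differences of the 6 genes in both comparisons are therefore given as a description, with no test.

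RNA sequencing of 14 cell libraries was analysed, out of 46 samples in the series; the 32 tumour libraries were not analysed here. The first table held 4 RPM lines, which are mutant for Rb, p53 and Max, and 4 RP lines, which are mutant for Rb and p53 only. The second held 3 libraries of an RPM line transduced with a vector expressing Max (Max addback) and 3 of the same line transduced with an empty vector, so these 6 libraries share the Rb, p53 and Max mutations. An Ascl-driven Cre that tamoxifen switches on recombined the conditional alleles of the mice in neuroendocrine cells. All 6 transduced libraries come from 1 line, which by the library names is RPM replicate 2, and each of the 8 other libraries has a line name of its own. The sources used here give neither the age of the mice nor whether the transduced replicates grew as separate cultures, so their spread may be technical.

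Caveolins insert into the inner leaflet of the plasma membrane and assemble into oligomers that curve it. Cavins are cytosolic proteins that coat these oligomers: cavin-1 (also called PTRF) is needed for caveolae to form in most cell types, and cavin-2 (SDPR) and cavin-3 (PRKCDBP, SRBC) join complexes with it. EHD2 is an ATPase at the neck of the pit that holds it at the surface. Caveolae are abundant in endothelium, adipocytes, muscle and fibroblasts and scarce in many neurons and neuroendocrine cells. MAX is the partner with which MYC and the MXD, MNT and MGA proteins bind DNA at E-boxes.

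The libraries held 6738614 to 8498396 reads over the listed genes, and 3 reads corresponded to 0.353 to 0.458 CPM (reads scaled to a common library size with TMM factors). Max stood at 88.2 ± 16.2 CPM in RPM lines and 54.6 ± 8.8 CPM in RP lines (SD, n = 4 each), which does not check the deletion because whole-gene counts do not show a removed exon. It stood at 240.2 ± 17.2 CPM with Max addback and 88.5 ± 6.73 CPM with empty vector (SD, n = 3 each). All 8 markers of C cells and neuroendocrine cells were listed in both tables, with Calca, the calcitonin gene, at 832 to 12562 CPM in the lines, whereas Tg and Tshr of thyroid follicular cells were listed in neither. The animal identifier of RPM replicate 1 also stands on tumours labelled Rb/p53 mutant, and RP replicate 4 held both Xist (344 CPM) and Y-linked Ddx3y (53.3 CPM). Ddx3y had no read in the 3 Max addback libraries, against 157 to 177 CPM with empty vector and 125 CPM in the untransduced line. An effect of Max and this difference between the transduced cells cannot be told apart.

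The 6 genes lie on chromosomes 1, 6, 7 and 11 of mm10 (GRCm38), with GENCODE vM21 as the annotation. Cav2 (ENSMUSG00000000058.6; chromosome 6, 17281185 to 17289115) and Cav1 (ENSMUSG00000007655.16; chromosome 6, 17306335 to 17341452) lie head to tail on the plus strand, 17219 bases apart with 0 annotated genes between them. Cavin2 (ENSMUSG00000045954.7) spans 51289126 to 51302960 on chromosome 1, plus strand. Cavin1 (ENSMUSG00000004044.9) spans 100956733 to 100970887 on chromosome 11, and Cavin3 (ENSMUSG00000037060.3) 105480083 to 105482300 on chromosome 7, both on the minus strand. Ehd2 (ENSMUSG00000074364.6) spans 15946958 to 15967567 on chromosome 7, minus strand. Annotated genes on the opposite strand overlap Cavin2 (9330175M20Rik), Cav1 and Cav2 (Gm15581) and Cavin3 (Gm45667). The sources used here do not state a strand setting for the counting, so antisense reads cannot be told apart from those of the caveolae genes.

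The promoter table of RefSeq (GRCm38.p6) held 7 windows for 5 of the genes, Cavin1, Cavin2, Cav1, Cav2 and Ehd2, each window running from 250 bases before a transcript start to 50 after it; Cavin3 had no entry. The 250 bases before the start are shown for Cavin2, which differed most between addback and empty vector libraries, and for the neighbours Cav1 and Cav2, which were both higher with addback. They are given 5′ to 3′ on the plus strand, at chr1:51288876-51289125 for Cavin2, chr6:17306085-17306334 for Cav1 and chr6:17280935-17281184 for Cav2. Capitals mark matches to the E-box letters CANNTG or to the TEAD letters GGAATG.
Cavin2: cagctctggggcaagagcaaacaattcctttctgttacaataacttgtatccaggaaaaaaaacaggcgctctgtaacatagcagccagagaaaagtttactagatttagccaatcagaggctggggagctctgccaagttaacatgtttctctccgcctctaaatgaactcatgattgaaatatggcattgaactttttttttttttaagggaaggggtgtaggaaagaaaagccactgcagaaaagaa
Cav1: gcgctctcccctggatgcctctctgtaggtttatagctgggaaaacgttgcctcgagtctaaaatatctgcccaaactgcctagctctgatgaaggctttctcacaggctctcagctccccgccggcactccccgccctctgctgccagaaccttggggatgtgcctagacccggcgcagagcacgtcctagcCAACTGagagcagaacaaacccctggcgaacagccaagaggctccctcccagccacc
Cav2: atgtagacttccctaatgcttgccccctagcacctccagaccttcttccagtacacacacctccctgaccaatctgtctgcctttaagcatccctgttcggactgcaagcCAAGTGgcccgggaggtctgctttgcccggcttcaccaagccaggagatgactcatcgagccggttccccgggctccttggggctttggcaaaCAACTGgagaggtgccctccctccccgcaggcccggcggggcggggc

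The motif CACGTG, the E-box preferred by MAX dimers, matched 0 of the 7 windows, and 7.15% of all 32851 windows of the table hold it. CANNTG, which includes CACGTG and reads the same on both strands, matched windows of Cav1 (1 match in each of 2 windows), Cav2 (2 matches) and Ehd2 (1 match) and none of Cavin1 or Cavin2. It matched 72.3% of all windows. GGAATG, searched on both strands, matched the windows of Cavin1 and no other, against 14.7% of all windows. The Cavin2 stretch therefore carries no capitals, the Cav1 stretch 1 match and the Cav2 stretch 2. A match is a string of letters and not a measured binding site.

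In RPM lines set against RP lines, the question was how the loss of Max on top of Rb and p53 alters transcripts. The caveolae genes did not move as a block. Cavin3 was higher in every RPM line than in any RP line, Cavin2 was higher in 3 of the 4 RPM lines than in any RP line, and Cavin1, Cav2 and Ehd2 ranged widely within both groups. On the log2(CPM + 1) scale the 5 genes had a median change of 0.71, against -0.0052 for all 14360 genes. RPM and RP libraries did not overlap at 1 of the 5 genes, where 9.37% of all genes show no overlap; it was higher in RPM lines (4.97% of all genes), and none was lower (4.39%). The log2 change was at least 1 in size for 2 of the 5, against 8.71% of all genes, both higher (2.9%) and none lower (5.81%). Since the genes were chosen with this contrast in view, nothing is read from these counts.

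Cavin3, the cavin that binds protein kinase C delta, had 9.83, 7.23, 10.9 and 17.5 CPM in RPM replicates 1 to 4, against 0.120, 0.361, 0.488 and 1.65 CPM in RP replicates 1 to 4. The groups did not overlap, and the highest RP line was replicate 4, which held Xist and Ddx3y together. In reads these were 77, 58, 92 and 141 in RPM lines and 1, 3, 4 and 14 in RP lines, so RP replicates 1 to 3 sit at or near the level of 3 reads and RP replicate 4 above it. The means were 11.4 ± 4.35 CPM in RPM lines and 0.654 ± 0.68 CPM in RP lines (SD, n = 4 each). On the log2(CPM + 1) scale the change was 2.92 (SE 0.35). That was the 22nd highest change of all 14360 genes. It was 3.17 without RP replicate 4 and 2.96 without RPM replicate 1. The size depends on the scale, since RP levels are low: the authors' deposited table gives a log2 fold change of 4.08.

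Cavin2, a phosphatidylserine-binding cavin that shapes the membrane, had 0.510, 27.5, 7.46 and 1.61 CPM in RPM replicates 1 to 4, against 0, 0.842, 0.122 and 0.707 CPM in RP replicates 1 to 4. RPM replicates 2, 3 and 4 lay above all RP lines, whereas RPM replicate 1 lay among them. The RP values are 0, 7, 1 and 6 reads, and the absence of reads in RP replicate 1 allows up to 0.361 CPM (3 reads, counting error only). The log2 change was 2.02 (SE 0.83), and 4.42 in edgeR's fit to the recovered reads. Without RPM replicate 2 it was 1.23.

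Cavin1, the cavin required for caveolae, had 6.38, 17.5, 2.60 and 5.82 CPM in RPM replicates 1 to 4, against 28.8, 37.0, 2.19 and 3.89 CPM in RP replicates 1 to 4. RP replicates 1 and 2 stood above all RPM lines, RP replicate 4 stood among them and RP replicate 3 below them. The means were 8.06 ± 6.48 CPM in RPM lines and 18.0 ± 17.6 CPM in RP lines (SD, n = 4 each), and the log2 change was -0.60 (SE 0.88), and -1.15 in edgeR's fit to the recovered reads. It was -0.026 without RP replicate 2 and -1.22 without RP replicate 3.

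Cav2, a caveolin that forms hetero-oligomers with caveolin-1, had 10.3, 59.3, 1.78 and 1.86 CPM in RPM replicates 1 to 4, against 4.81, 17.3, 0.244 and 4.71 CPM in RP replicates 1 to 4. RPM replicate 2 stood far above the other 7 lines, and the groups overlapped. The log2 change of 0.71 (SE 1.12) turned to -0.23 without RPM replicate 2, and was 1.43 in edgeR's fit. RPM replicate 2 was also the highest RPM line for Cavin1, Cavin2 and Ehd2, and the lowest for Cavin3. The same line was the lowest of all 8 for the 5 epithelial markers (Epcam, Cdh1, Krt7, Krt8 and Krt18), whose summed level was 206 to 5147 CPM in RPM lines and 2541 to 4057 CPM in RP lines; the part of this difference in the caveolae genes was not tested.

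Ehd2, the ATPase of the caveolar neck, had 7.02, 22.3, 11.01 and 14.9 CPM in RPM replicates 1 to 4, against 8.42, 4.93, 41.7 and 21.3 CPM in RP replicates 1 to 4. The groups overlapped, with RP replicate 2 the lowest line and RP replicate 3 the highest. The log2 change was -0.15 (SE 0.62), and -0.47 in edgeR's fit. It changed sign without RPM replicate 1 (0.11), RP replicate 3 (0.35) or RP replicate 4 (0.040).

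**Figure D1:**
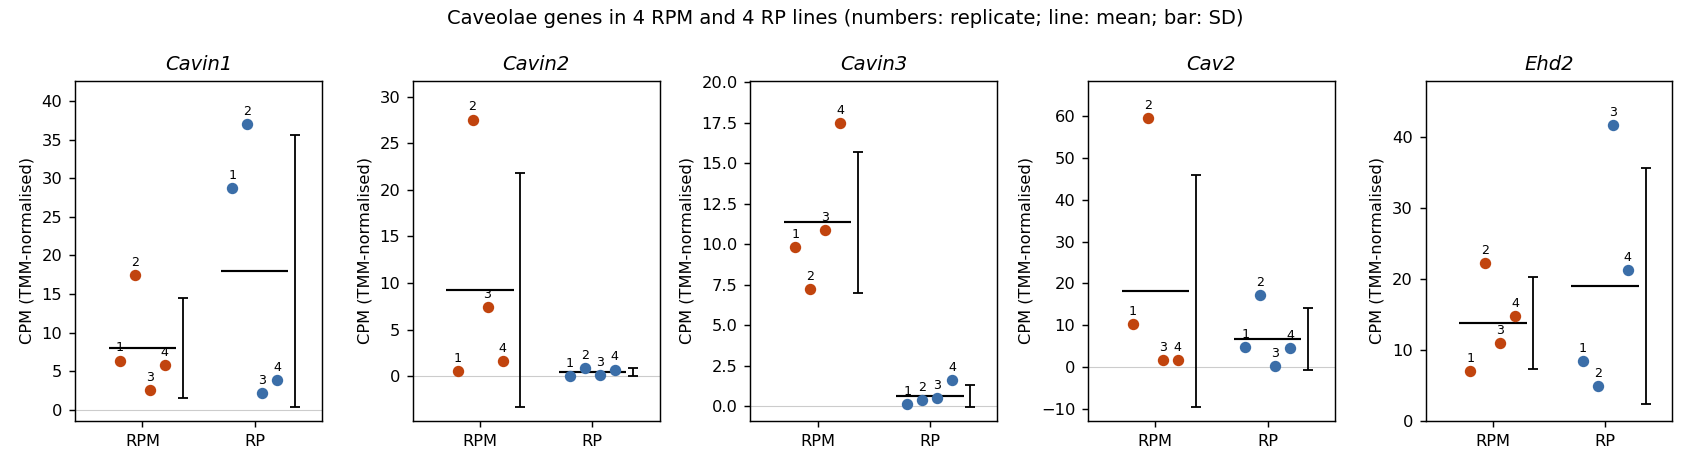
CPM (TMM-normalised) of the 5 caveolae genes listed for the lines, in 4 RPM and 4 RP lines; points are libraries with their replicate numbers, horizontal lines are means and vertical bars SD. Cavin3 is the gene at which the groups do not overlap (7.23 to 17.5 CPM in RPM lines and 0.120 to 1.65 CPM in RP lines), and RPM replicate 2 stands out for Cav2 at 59.3 CPM.

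Markers of other cell types that build many caveolae were examined beside these levels. Of 8 endothelial markers 3 were listed for the lines (Tek, Plvap and Vwf), with a summed level of 4.58 to 40.3 CPM in RPM lines and 23.3 to 98.2 CPM in RP lines; Pecam1, Cdh5, Kdr, Tie1 and Emcn were not listed. Vwf had 0.124 to 34.3 CPM in RPM lines and 11.4 to 89.2 CPM in RP lines. Of 7 fibroblast markers 3 were listed (Col1a1, Dcn and Thy1), at 10.3 to 175 CPM in sum in RPM lines and 8.90 to 147 CPM in RP lines, with Col1a2, Col3a1, Lum and Pdgfra not listed; Dcn had 0.766 to 45.2 CPM in RPM lines and 2.65 to 142 CPM in RP lines, and Thy1 had 7.02 to 129 CPM in RPM lines and 2.53 to 31.8 CPM in RP lines. Of 7 smooth muscle and pericyte markers 5 were listed, at 16.8 to 25.1 CPM in sum in RPM lines and 16.4 to 33.6 CPM in RP lines. None of 5 adipocyte markers was listed for the lines, and Cd68 was the 1 of 4 leukocyte markers listed, at 1.87 to 4.14 CPM in RPM lines and 1.804 to 4.33 CPM in RP lines. Their part in the levels of the caveolae genes was not tested, and fewer cells of a type and less RNA per cell cannot be told apart in bulk samples.

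In Max addback libraries set against empty vector libraries, the question was which transcripts respond when Max is given back to a Max-mutant line. The 6 genes split into 2 sets: Cav1, Cav2 and Cavin3 were higher with addback, and Cavin2, Ehd2 and Cavin1 were lower. No overlap between addback and empty vector libraries was seen for 6 of the 6 genes, where 61.9% of all 14056 genes show none; 3 were higher (31.7% of all genes) and 3 lower (30.2%). The log2 change was at least 1 in size for 6 of 6, against 15.6% of all genes, with 3 higher (10.5%) and 3 lower (5.04%). Their median absolute log2 change was 1.801, against 0.34 for all genes. Since Cavin2 in this contrast was known when the genes were chosen, nothing is read from these counts. The lack of Y-linked reads in the addback libraries, given above, applies to every value of this comparison.

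Cavin2 had 9.79, 11.1 and 12.6 CPM in Max addback replicates 1 to 3, against 442, 479 and 431 CPM in empty vector replicates 1 to 3. The lowest empty vector library stood far above the highest addback library, and neither group varied much within itself. The means were 11.2 ± 1.4 CPM with addback and 450.7 ± 25.6 CPM with empty vector (SD, n = 3 each), and the log2 change was -5.22 (SE 0.098). In mean CPM it was 40.4-fold lower with addback, and 14 of the 14056 genes had a lower log2 change. Among these 14 were the Y-linked genes Ddx3y, Eif2s3y, Kdm5d and Uty.

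Ehd2 had 14.9, 15.4 and 14.01 CPM in Max addback replicates 1 to 3, against 57.0, 58.0 and 54.8 CPM in empty vector replicates 1 to 3. The groups were far apart, and the log2 change of -1.87 had the smallest SE of the 6 genes (0.091). Cavin1 had 10.4, 10.7 and 15.2 CPM in Max addback replicates 1 to 3, against 30.4, 27.6 and 24.4 CPM in empty vector replicates 1 to 3. Every empty vector library was above every addback library, with a log2 change of -1.13 (SE 0.15).

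Cav1, the main caveolin outside muscle, had 102, 137 and 158 CPM in Max addback replicates 1 to 3, against 31.7, 58.3 and 45.0 CPM in empty vector replicates 1 to 3. The groups did not overlap, and replicate 1 was the lowest library of each. The log2 change was 1.55 (SE 0.21). Cav2, its neighbour on chromosome 6, had 42.7, 59.9 and 44.8 CPM in Max addback replicates 1 to 3, against 10.4, 15.9 and 11.3 CPM in empty vector replicates 1 to 3. The groups did not overlap, and the log2 change of Cav2 was 1.89 (SE 0.17).

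Cavin3 had 3.81, 2.62 and 3.86 CPM in Max addback replicates 1 to 3, against 0.143, 0.142 and 0.763 CPM in empty vector replicates 1 to 3. These are 30, 21 and 30 reads with addback and 1, 1 and 5 reads with empty vector, so 2 of the 3 empty vector libraries lie below the level of 3 reads. The log2 change was 1.73 (SE 0.22) on the log2(CPM + 1) scale, and the authors' deposited table gives 3.27.

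**Figure D2:**
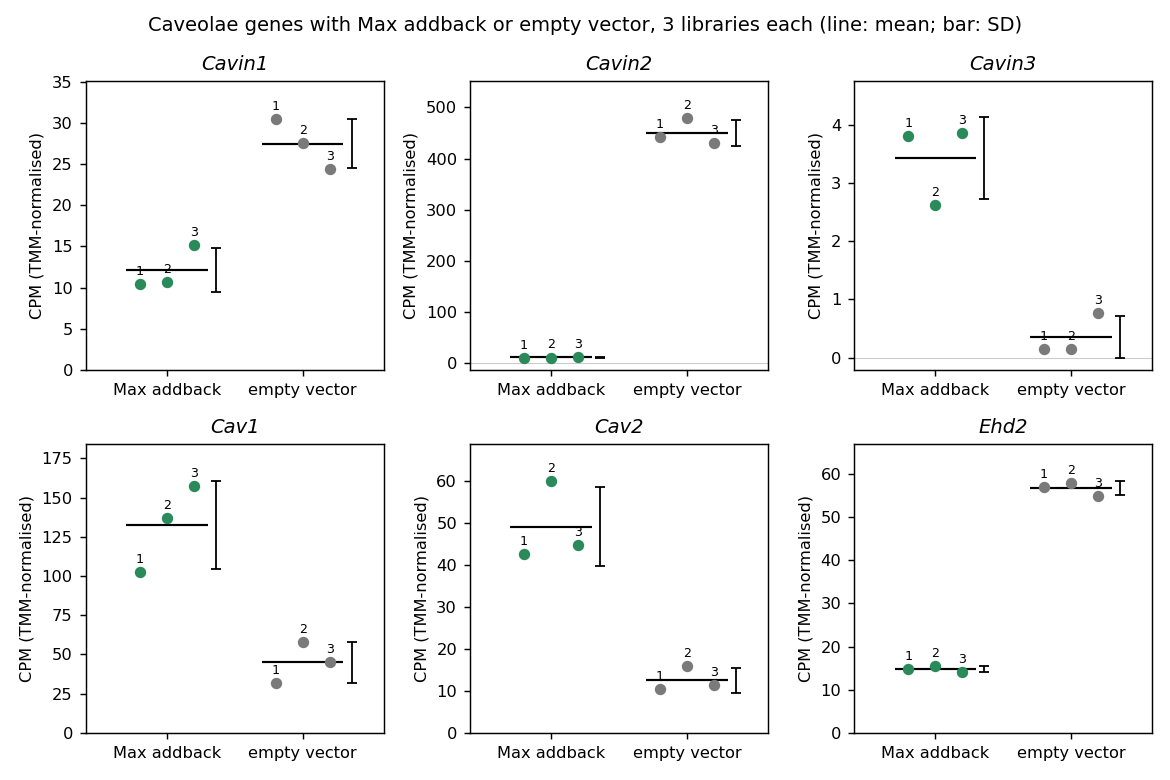
CPM (TMM-normalised) of the 6 caveolae genes in 3 Max addback and 3 empty vector libraries of 1 RPM line; points are libraries with replicate numbers, horizontal lines are means and vertical bars SD. Cavin2 stands at 9.79 to 12.6 CPM with addback and 431 to 479 CPM with empty vector, whereas Cav1, Cav2 and Cavin3 lie higher with addback.

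**Figure D3:**
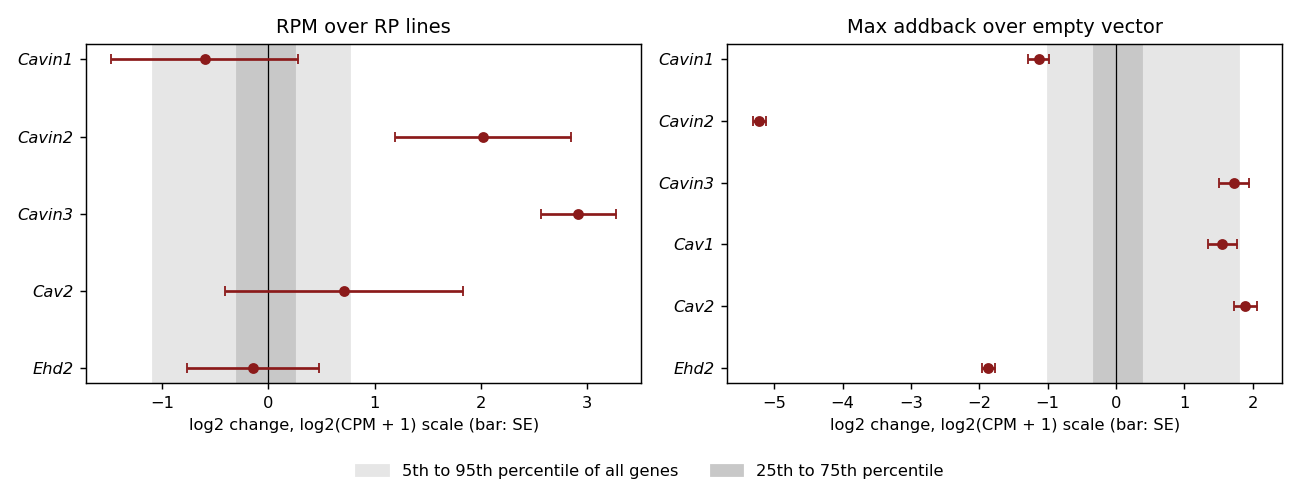
Log2 change on the log2(CPM + 1) scale (x axis; bars are SE) of each caveolae gene in RPM over RP lines and in Max addback over empty vector; grey bands are the 5th to 95th and 25th to 75th percentiles of all listed genes. Cavin3 is at 2.92 in the lines and 1.73 with addback, and Cavin2 at 2.02 in the lines and -5.22 with addback.

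Set side by side, Cavin3 was higher in the Max-mutant RPM lines than in RP lines and higher again in the line that received Max than in its empty vector control. Cavin2 was higher in 3 of the 4 RPM lines than in any RP line and lower with Max addback. Cavin1 and Ehd2 had negative changes in both comparisons and Cav2 positive ones, with the changes of these 3 genes in the lines no larger than their standard errors. The 2 tables share no library but share a line.

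That line was also sequenced untransduced, as RPM replicate 2, in a table normalised separately, so no test was made across them. Cavin2 averaged 11.2 CPM with Max addback and 450.7 CPM with empty vector, and the untransduced line had 27.5 CPM. Ehd2 averaged 14.8 CPM with addback and 56.6 CPM with empty vector, beside 22.3 CPM untransduced. Cav2 averaged 49.2 CPM with addback and 12.5 CPM with empty vector, beside 59.3 CPM untransduced. Cavin3 averaged 3.43 CPM with addback and 0.349 CPM with empty vector, beside 7.23 CPM untransduced, and Cavin1 12.1 and 27.5 CPM, beside 17.5 CPM.

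On the log2(CPM + 1) scale the untransduced line, a single library, lay nearer to the addback mean than to the empty vector mean at 5 of 5 genes, as it did at 59.2% of all 13528 genes listed in both tables. The log2 difference from the untransduced line was -1.24 for addback and 3.98 for empty vector at Cavin2, and -0.91 and -2.64 at Cavin3. It was -0.28 for addback and -2.18 for empty vector at Cav2. The median absolute difference of the 5 genes was 0.56 for addback and 2.18 for empty vector, against 0.24 and 0.31 over all these genes. Differences of at least 1 in size were found for 20% of the 5 genes with addback and 80% with empty vector, against 5.68% and 11.7% of all these genes. The lower Cavin2 with addback and the higher Cavin3 in RPM lines were known when the genes were chosen. Nothing is therefore read from these counts and medians. Neither the empty vector libraries nor the untransduced line received the Max vector.

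**Figure D4:**
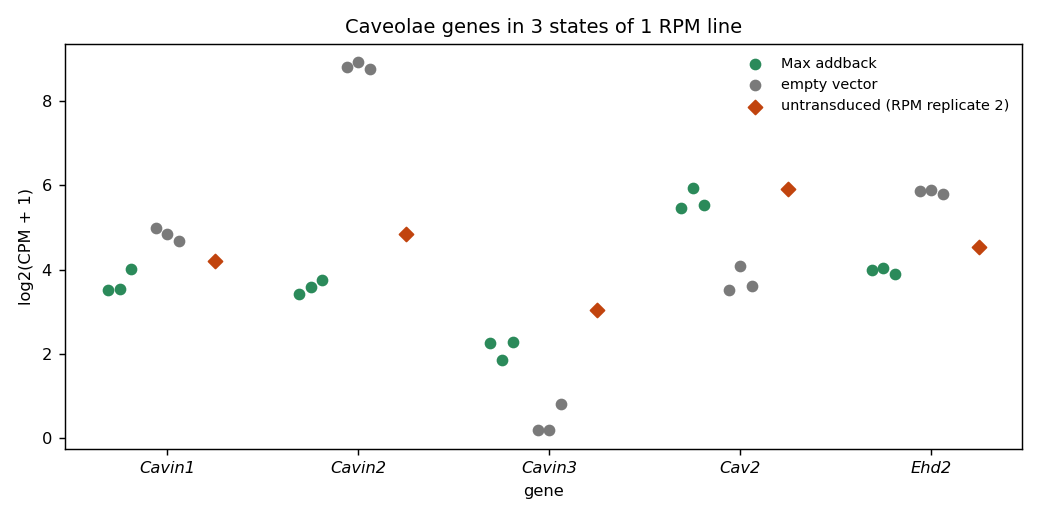
log2(CPM + 1) of 5 caveolae genes in Max addback (circles, 3 libraries), empty vector (circles, 3 libraries) and the untransduced line (diamond, 1 library, from a table normalised separately). The untransduced library lies nearer to the addback mean at all 5 genes, narrowly at Cavin1 and most plainly at Cavin2, with 11.2 CPM on average for addback, 450.7 CPM for empty vector and 27.5 CPM untransduced.

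Levels of different genes were compared per length, as RPKM (CPM divided by transcript length in kilobases). In RPM lines the order of the group means was Cavin3 (6.83 ± 2.62 RPKM), Cav2 (5.50 ± 8.29), Cavin2 (3.04 ± 4.11), Ehd2 (2.70 ± 1.27) and Cavin1 (2.25 ± 1.81 RPKM; SD, n = 4). In RP lines it was Cavin1 (5.01 ± 4.90 RPKM), Ehd2 (3.73 ± 3.25), Cav2 (2.03 ± 2.20), Cavin3 (0.394 ± 0.409) and Cavin2 (0.137 ± 0.137 RPKM; SD, n = 4). The ranges of all neighbours in both orders overlapped. With Max addback Cav1 (38.4 ± 8.12 RPKM) stood above Cav2 (14.7 ± 2.81), followed by Cavin2 (3.65 ± 0.46), Cavin1 (3.37 ± 0.741), Ehd2 (2.89 ± 0.141) and Cavin3 (2.06 ± 0.424 RPKM; SD, n = 3). In this order Cavin2 overlapped Cavin1, and Cavin1 overlapped Ehd2. With empty vector Cavin2 (147.5 ± 8.38 RPKM) led, followed by Cav1 (13.1 ± 3.85), Ehd2 (11.1 ± 0.317), Cavin1 (7.66 ± 0.839), Cav2 (3.76 ± 0.883) and Cavin3 (0.21 ± 0.216 RPKM; SD, n = 3). Here Cav1 overlapped Ehd2 and the other neighbours were apart.

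The make-up of the cavin transcripts differed from library to library. Cavin3 was 75.2, 23.9, 67.4 and 83.0% of the summed cavin RPKM in RPM replicates 1 to 4, against 0.895, 2.01, 31.0 and 43.0% in RP replicates 1 to 4. Cavin1 was the largest share in every RP line, at 99.1, 95.4, 64.7 and 47.0%, and in none of the RPM lines, at 22.6, 26.7, 7.47 and 12.8%. RPM replicate 2 was the line in which Cavin2 led, at 49.5%. The shares of Cavin3 overlap between the groups (RPM replicate 2 against RP replicates 3 and 4), where the levels do not. In RP replicate 3 the sum was 0.945 RPKM, so its shares rest on few reads.

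With Max addback the cavin RPKM was spread more evenly: Cavin1 made up 34.6 to 39.6%, Cavin2 38.1 to 44.3% and Cavin3 19.2 to 27.3% over the 3 replicates. With empty vector Cavin2 made up 94.4, 95.3 and 95.1% in replicates 1 to 3. The cavin sum was 8.19 to 10.7 RPKM with addback and 148 to 165 RPKM with empty vector, and the caveolin sum of Cav1 and Cav2 was 42.5 to 59.2 RPKM with addback and 12.3 to 21.7 RPKM with empty vector. The caveolin sum was therefore above the cavin sum in every addback library and below it in every empty vector library. With empty vector this order rests on Cavin2, whose difference was known when the genes were chosen. Cavin1 and Cavin3 averaged 7.66 and 0.21 RPKM there, and Cav1 13.1 RPKM. The reversal is therefore not a finding beside the change of Cavin2. The ratio of Cav1 to Cav2 was 2.21 to 3.40 with addback and 2.94 to 3.86 with empty vector, ranges that overlap.

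**Figure D5:**
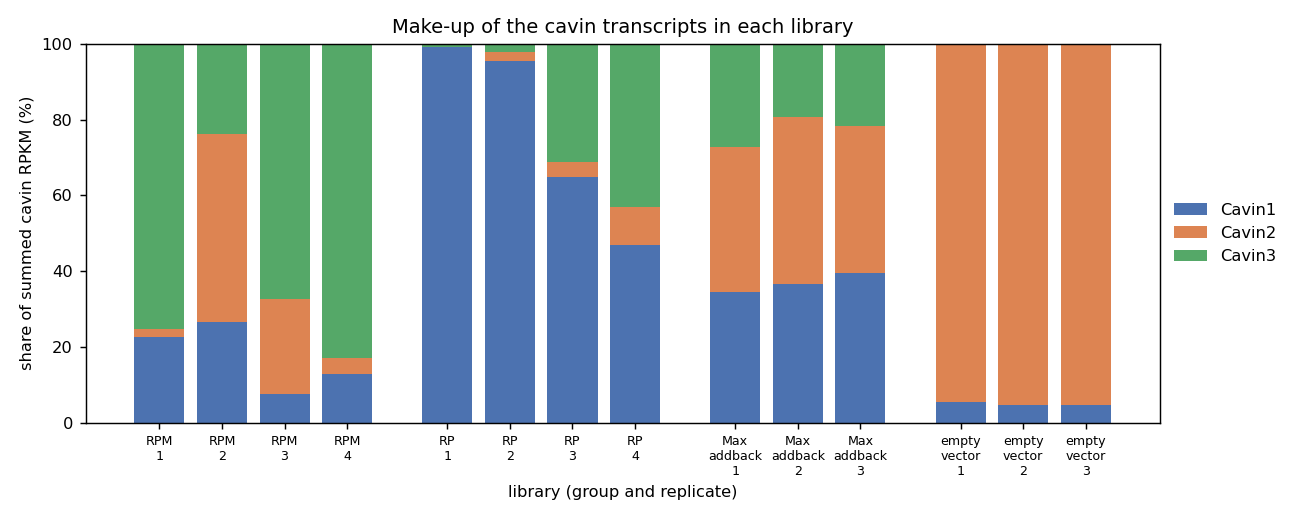
Share of Cavin1, Cavin2 and Cavin3 in the summed cavin RPKM (y axis, percent) of each of the 14 libraries, grouped as RPM, RP, Max addback and empty vector. Cavin1 leads in all RP lines (47.0 to 99.1%), Cavin3 in 3 of 4 RPM lines, and Cavin2 takes 94.4 to 95.3% with empty vector.

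Other genes of caveolae biology were taken from a list of 47, in 8 classes. In RPM lines none of the 43 listed genes passed limma's test over all 14360 genes (0.334% of all genes did, 0.209% higher and 0.125% lower), and 10 had an unadjusted p under 0.05, where 15.9% of all genes did. edgeR called 0 of them (0.0209% of all genes), and DESeq2 called 1 (4.71% of all genes), Pacsin2, as lower (adjusted p = 0.012). Pacsin2, an F-BAR protein that bends membrane at caveolae, averaged 80.3 ± 10.8 CPM in RPM lines and 117.6 ± 12.4 CPM in RP lines (SD, n = 4 each), and its log2 change was -0.55 (SE 0.13) with a limma adjusted p of 0.145. Flna, the actin crosslinker filamin A that binds caveolin-1, averaged 285 ± 66.3 and 451 ± 108 CPM in RPM and RP lines (limma adjusted p = 0.234). Abl1, a kinase that acts on caveolin-1, averaged 146 ± 22.5 and 194 ± 25.8 CPM (limma adjusted p = 0.242). Mrtfb, a coactivator of SRF, averaged 29.1 and 50.2 CPM, and Plvap, a protein of caveolar diaphragms in endothelium, 4.63 and 8.88 CPM, in the same order (limma adjusted p = 0.268 and 0.226). Tfpi, an inhibitor of coagulation found in caveolae, averaged 3.55 ± 4.66 CPM in RPM lines and 0.0305 ± 0.061 CPM in RP lines, where the 4 libraries held 1 read (limma adjusted p = 0.214). The list's median log2 change was -0.12, against -0.0052 over all genes.

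With Max addback 25 of the 41 listed genes passed limma's test, 8 higher and 17 lower, a share of 61.0% against 53.2% of all genes (27.7% higher and 25.5% lower). Without addback replicate 3 the list had 13 higher and 19 lower. The share of 61.0%, which pools both directions, lies near that of all genes and says nothing particular about the list. By direction the list leaned to lower calls. Lower calls were 17 of the 41, where 25.5% of all genes were lower. Higher calls were 8 of the 41, where 27.7% of all genes were higher. Whether this lean exceeds chance was not tested. The median log2 change of the list was -0.12, against -0.0019 over all genes. Src, the kinase that phosphorylates caveolin-1, was higher with addback (log2 change 2.66, SE 0.12, limma adjusted p = 7.44e-08). It had 45.6, 45.1 and 46.4 CPM in Max addback replicates 1 to 3. Empty vector replicates 1 to 3 had 7.43, 5.68 and 6.11 CPM. Aqp1, a water channel found in caveolae, was lower with addback (limma adjusted p = 1.44e-06). It averaged 8.25 ± 1.74 CPM with addback and 40.2 ± 2.83 CPM with empty vector (SD, n = 3 each). Dnm1 and Pacsin1 encode the neuronal dynamin and the neuronal F-BAR protein. They averaged 90.2 and 15.7 CPM with addback and 37.0 and 2.14 CPM with empty vector (limma adjusted p = 4.19e-06 and 7.41e-06). Dnm2 and Pacsin2, their widely expressed paralogs, averaged 155 and 74.9 CPM with addback and 159 and 65.0 CPM with empty vector and did not pass (limma adjusted p = 0.697 and 0.0623). The untransduced line (RPM replicate 2, 1 library, normalised separately) had 83.9 CPM of Dnm1, near the addback level. It had 26.7 CPM of Src, 20.2 CPM of Aqp1 and 6.73 CPM of Pacsin1, each between the addback and empty vector levels.

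Sgms1, a sphingomyelin synthase, was lower with addback (limma adjusted p = 1.29e-05). It averaged 13.4 ± 0.501 CPM with addback and 29.7 ± 1.59 CPM with empty vector (SD, n = 3 each). The untransduced line had 23.1 CPM of Sgms1 and 4.74 CPM of Tead4, also between the addback and empty vector levels. Of 9 coactivators and factors of mechanosensitive transcription, 7 were listed for this experiment. Of these, 1 was called higher with addback (Mrtfa) and 4 lower (Yap1, Tead1, Tead3 and Tead4). Over all 14056 genes 27.7% were called higher and 25.5% lower, and nothing is read from this count. Tead4 averaged 1.22 ± 0.369 CPM with addback and 8.93 ± 1.68 CPM with empty vector (SD, n = 3 each; log2 change -2.16, limma adjusted p = 6.83e-06), and Yap1, a coactivator of TEAD factors, 14.4 and 24.9 CPM (limma adjusted p = 0.00125). Of the 6 kinases, Src, Abl1 and Prkcd were higher with addback and Fyn and Prkca lower, with limma adjusted p of at most 0.04. Yes1 was not called. The same shares of all genes apply here, and nothing is read from this count either. The muscle paralog Cavin4 was at 0.623 to 0.763 CPM with addback and 0.852 to 1.57 CPM with empty vector, and the muscle caveolin Cav3 was not listed in either table.

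The summed levels of most marker lists differed in this comparison too, where 61.9% of all genes show no overlap. The 5 epithelial markers summed to 686 to 814 CPM with addback and 62.7 to 74.2 CPM with empty vector, with Krt7 at 298 to 356 CPM and 8.52 to 13.4 CPM. Of 5 adipocyte markers only Fabp4 was listed, at 29.7 to 54.4 CPM with addback and 434 to 607 CPM with empty vector; Adipoq, Plin1, Lep and Cidec were not listed. The 3 listed of 7 fibroblast markers summed to 12.2 to 15.1 CPM with addback and 33.1 to 44.2 CPM with empty vector. Of these, Dcn had 4.96 to 6.35 CPM with addback and 22.4 to 35.4 CPM with empty vector, and Thy1 6.86 to 7.97 CPM with addback and 4.27 to 5.15 CPM with empty vector. The 5 listed of 7 smooth muscle and pericyte markers summed to 15.5 to 16.2 CPM with addback and 3.05 to 5.83 CPM with empty vector. Of these, Myh11 had 6.61 to 8.22 CPM with addback and 0 to 0.572 CPM with empty vector, and Des 0.763 to 1.16 CPM with addback and 1.53 to 3.84 CPM with empty vector. The 4 listed of 8 endothelial markers summed to 14.8 to 15.6 CPM with addback and 11.3 to 11.8 CPM with empty vector. Cdh5, Kdr, Tie1 and Emcn were not listed. Vwf had 6.43 to 9.22 CPM with addback and 2.72 to 3.41 CPM with empty vector. Tek was lower with addback, at 0.257 to 0.508 CPM against 1.68 to 2.43 CPM with empty vector. Plvap and Pecam1 overlapped between the groups. The 8 C cell and neuroendocrine markers summed to 8737 to 10177 CPM with addback and 4944 to 5255 CPM with empty vector. Calca, the most abundant of them, was not higher with addback. It had 2386 to 2876 CPM with addback and 2693 to 2932 CPM with empty vector, ranges that overlap. Every other marker of this list was higher in each addback library than in any empty vector library. The 3 listed of 5 thyroid follicular markers summed to 2.24 to 2.67 CPM with addback and 2.29 to 3.55 CPM with empty vector. Cd68, the 1 of 4 leukocyte markers listed, had 2.49 to 3.73 CPM with addback and 1.83 to 3.27 CPM with empty vector. The ranges of these last lists overlapped. The part of the marker differences in the levels of the caveolae genes was not tested.

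For each gene listed in both tables, the genes most like it were found over the 14 libraries. Likeness was the root mean square difference of log2(CPM + 1), centred on each table's mean, among 12881 genes with a mean of at least 1 CPM; it is a description of these libraries, which share lines, and carries no p. The 3 nearest to Cavin3 were Dctd, which encodes dCMP deaminase, Mcmdc2, a meiotic MCM-domain protein, and Npepl1, at 0.47, 0.65 and 0.68, where Cavin3 itself has a root mean square of 1.29 about its means. Dctd averaged 12.5 CPM in RPM lines and 0.177 CPM in RP lines, and 1.23 CPM with addback and 0.0982 CPM with empty vector. The 3 nearest to Cavin2 were Nr2f1, which encodes the nuclear receptor COUP-TFI, Tmeff2 and Prdm6, at 0.73, 0.88 and 0.98. Nr2f1 averaged 2.32 CPM with addback and 64.0 CPM with empty vector. The nearest to Ehd2 were Ier5, Rufy4 and Xylt1 (0.31, 0.41 and 0.42), to Cavin1 Sh3bp5, Mmp11 and Gm28875 (0.49, 0.57 and 0.60), and to Cav2 Rgs5, Kcnj10 and Vegfd (0.81, 0.85 and 0.85).

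The caveolae genes were not among each other's nearest genes. Seen from Cavin2, Ehd2 ranked 224th at a difference of 1.67, Cavin1 3904th, Cavin3 11624th and Cav2 11860th of the 12881 genes. Seen from Cavin1, the nearest other member was Cav2, at rank 11052. These ranks also depend on how much a gene varies. A gene that does not vary would lie 1.05 from Cavin1, and Cav2 lay at 1.37. A late rank therefore does not show that the members are unusually unlike each other.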

How the data were processed

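The members and gene lists were chosen with earlier results of these data known. Per the submitters' processing notes, bcl2fastq 1.8.4, TopHat2 2.1.0, HTSeq 0.6.1 and edgeR were used on mm10; the sources used here name no annotation release and no filter on genes. Each gene and library has a CPM signal with TMM normalisation and an RPKM value (CPM divided by gene length), as the authors deposited them per the file headers, in 2 tables normalised separately, with the authors' log2 fold changes, p-values, FDR values and a call score of their comparison. The deposited p-values and scores were not used. The lengths implied by CPM over RPKM equal the summed exon length of GENCODE vM21 for all 6 genes.

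The CPM values of 100% of genes in each library were whole multiples of 1 read within 0.01 of a read, which gave whole reads. limma-trend (limma 3.58.1, R 4.3.3) was fitted to log2(CPM + 1) over all genes of a table, without covariates, with Benjamini-Hochberg adjusted p under 0.05, two-sided; this scale understates changes of low genes. Raw counts would have been tested by edgeR; since the tables hold normalised values, edgeR (4.0.16) and DESeq2 (1.42.0) were run on the recovered reads as alternatives, beside pseudocounts of 0.5 and 2, a filter at a mean of 1 CPM, quantile normalisation, a replicate block and leaving out each library. The fits were tested on simulated data. Named genes were the members, Max, the 6 pathway genes with the smallest p in each comparison and the 3 genes most like each member. The most abundant gene of each marker list was named too. Other pathway genes and markers are named where a count is spelled out. Thy1, Des and Tek were chosen after their values were seen. Samples were grouped by title and genotype; 1 pituitary tumour with conflicting labels was left unassigned. In the RPM over RP comparison each line has 1 library, so its p-values measure the spread between lines. All 6 transduced libraries come from 1 line. The p-values for addback therefore measure the spread among replicates of that line, which may be technical.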

Additional observations from a re-analysis of the deposited data

Results flagged for a closer look

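In 5 of the 36 gene and group pairs tested, 1 of the 4 lines stood apart from the other 3 by more than Dixon's 95% limit on the CPM scale. For normally distributed values chance flags about 1 in 20 groups. Whether CPM values follow that rate was not tested. Cav2 was at 59.3 CPM in RPM replicate 2, where the other RPM lines had 1.78 to 10.3 CPM. Aqp1 was at 20.2 CPM in the same line, against 0.255 to 1.66 CPM in the others. Tfpi was at 10.5 CPM in RPM replicate 4, where the other RPM lines had 0.873 to 1.66 CPM. Tfpi also had 0.122 CPM, 1 read, in RP replicate 3 and no read in the other RP lines. With no read in the others, any read at all passes the limit, so nothing is read from this flag. Tead4 was at 11.3 CPM in RP replicate 1, where the other RP lines had 0.244 to 1.77 CPM.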

How the results depend on the processing

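Of 153 alternative values of the members' log2 changes, 135 moved by less than the spread between replicates, 14 moved by more and 4 changed sign; the 4 are Cav2 without RPM replicate 2 (-0.23) and Ehd2 without RPM replicate 1 (0.11), RP replicate 3 (0.35) or RP replicate 4 (0.040). In the lines, Cavin3 was 3.45 and 2.31 with pseudocounts of 0.5 and 2, 4.08 with edgeR and 4.11 with DESeq2, and Cavin2 4.42 with edgeR and 4.47 with DESeq2. With addback, Cavin3 was 2.27 and 1.21 with pseudocounts of 0.5 and 2, 1.28 after quantile normalisation, 3.27 with edgeR and 3.33 with DESeq2, and Ehd2 -1.81 with a pseudocount of 2, -1.94 with edgeR and -1.93 with DESeq2. The cause was not tested. Over the libraries left out in turn, the changes in the lines ranged from -1.22 to -0.026 for Cavin1, 1.23 to 2.65 for Cavin2, 2.70 to 3.17 for Cavin3, -0.23 to 1.31 for Cav2 and -0.60 to 0.35 for Ehd2. Over all genes of the lines, limma called 30 higher and 18 lower, 48 in all. With a replicate block it called 0 in all (0 higher and 0 lower; 2463 genes had an unadjusted p under 0.05), edgeR 1 and 2 (3 in all) and DESeq2 350 and 308 (658 in all). Without 1 library the counts ranged from 0 to 77 higher, 0 to 184 lower and 0 to 261 in all; the highest is without RPM replicate 1, and 0 were called without RPM replicate 3, RPM replicate 4 or RP replicate 3 (1805, 1692 and 1469 genes at an unadjusted p under 0.05). Of the pathway genes in the lines, 0 were called by limma, also in each fit without 1 library, and 1, lower, by DESeq2. With addback 21 to 32 pathway genes were called without 1 library, 6 to 13 higher and 14 to 19 lower, the highest without addback replicate 3. Of 168 alternative values of the named pathway genes, 167 kept direction and side of the threshold and 1 became a call. Replicate numbers do not pair the samples: deviations of same-numbered libraries correlated at 0.012 to 0.40 in the lines (over 0.1 in 2 of 4 pairs, and 2 of 4 RPM lines correlated best with their own number) and 0.012 to 0.079 with addback (1 of 3 best with its own number). The smallest levels rest on 1 to 5 reads, and depth limits Cavin3 and Cavin2 in RP lines and Cavin3 with empty vector.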
